A study of Mus musculus with 9 samples.

Results

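Satellite cells, the stem cells of skeletal muscle, were compared after expansion in a cytokine medium and in a T cell medium at passages P0, P1 and P2. The comparison was defined by the labelled medium and passage and holds 6 of the 9 libraries of the series, 3 per medium, leaving out the F10 medium library and both P15 libraries. All 6 libraries were made from limb skeletal muscle of C57/BL6/DBA mice aged 1 to 3 days, with both sexes pooled, and the cells grew on collagen-coated dishes. The cytokine medium was F10 with 15% fetal bovine serum and 2.5 ng/ml FGF, to which 4 cytokines had been added. They were TNF-α (10 ng/ml), IFN-γ (10 ng/ml), IL-13 (5 ng/ml) and IL-1α (5 ng/ml). The T cell medium was 50% T cell medium and 50% F10 with 15% serum, and it also held 2.5 ng/ml FGF. FGF was therefore present in both arms. The cytokines were added only as a mixture, so that the part of each cannot be told apart, and the labels do not say what the T cell portion contained. The arms also differed in that portion, which only the T cell medium held. A difference between the media therefore cannot be assigned to the added cytokines rather than to the T cell portion.

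IFN-γ acts through a receptor of the chains Ifngr1 and Ifngr2 and JAK kinases, and it raises genes with GAS or interferon-stimulated response elements. TNF-α and IL-1α act through NF-kB and AP-1, which drive inflammatory genes, metalloproteases and inhibitors of cell death. IL-13 acts through STAT6. Satellite cells activate, divide as myoblasts and then either fuse into fibres, which brings sarcomere and glycogen enzymes, or return to quiescence, for which Notch signalling through Hes and Hey repressors is known.

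The deposited table has 11148 rows in RPKM, that is, reads per gene divided by the gene's length and by the size of the library. Its row names go with its values only on some stretches, most of chromosome 16 and the starts of 7 other chromosomes. Gene names were therefore used for the 768 rows whose gene starts (mm10) below 92.1 Mb on chromosome 16 (462 rows), 6.4 Mb on chromosome 19 (136 rows), 15.1 Mb on chromosome 8 (75 rows), 12.6 Mb on chromosome 5 (37 rows), 7.9 Mb on chromosome 9 (24 rows), 10.2 Mb on chromosome 3 (15 rows), 6.3 Mb on chromosome 18 (11 rows) and 5.9 Mb on chromosome 17 (8 rows). Of these, 547 (71.2%) reached 1 RPKM in at least 1 of the 6 libraries, against 29.6% of the other rows. The 547 are the genes described here, and the other 221 with a usable name stayed below 1 RPKM. Pax7, Myf5, Myod1 and Des, which define satellite cells and myoblasts, lie outside these stretches, so the labelled cell type was not checked against them. Some levels were low for genes that most cells express strongly: Sod1, a superoxide dismutase, was at 1.85 to 4.09 RPKM, whereas Psmd2, a proteasome subunit, was at 102 to 121 RPKM. Levels of different genes were therefore not tested against each other, and a low level was not read as absence. The order of RPKM served only to choose which list members are named, and sums over marker genes are descriptions. Estimated depth was 13.4 to 18.2 M reads per library.

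Values below are RPKM in the order P0, P1, P2, each from 1 library. "Rose" and "fell" mean higher and lower in cytokine medium than in T cell medium, with a Benjamini-Hochberg adjusted p under 0.05 in limma, fitted over all 3619 rows that reached 1 RPKM with passage as the pairing factor. Differences are on the log2(RPKM + 1) scale, cytokine minus T cell medium, as the mean over the 3 passages ± SD (n = 3). This scale understates the change of genes near 0. A gene that reached 1 RPKM in only 1 medium had its direction partly set by that threshold. The labels do not say whether the passages came from separate cultures, so an adjusted p measures only how far the 3 passages agreed. Folds at single passages come from read numbers recovered from the RPKM, and their 95% exact binomial intervals cover counting error only.

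Of the 547 genes, 58 rose (10.6%) and 50 fell (9.14%). Over all 3619 rows the shares were 7.07% and 8.81%. These shares are the background for the counts of each list below, and no list was tested against them. The median difference of the 58 was 0.55 and that of the 50 was -0.73, and every one of them had the same sign at all 3 passages. A mean difference of at least 1 was reached by 14 of the genes that rose and 17 of those that fell. The largest increases were in Mmp10, Mmp13 and Mmp3, secreted metalloproteases, in the interferon-responsive genes Batf2 and Parp14, and in the collagen gene Col8a1. The largest decreases were in the muscle genes Actn3, Srl, Pygm and Myom2, the guidance ligand Sema3d and the Notch target Hes1. RPKM of the cytokine libraries all lay above those of the T cell libraries for 104 genes (19%) and all below for 81 (14.8%), against 17.2% and 14.5% of all rows.

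**Figure D1:**
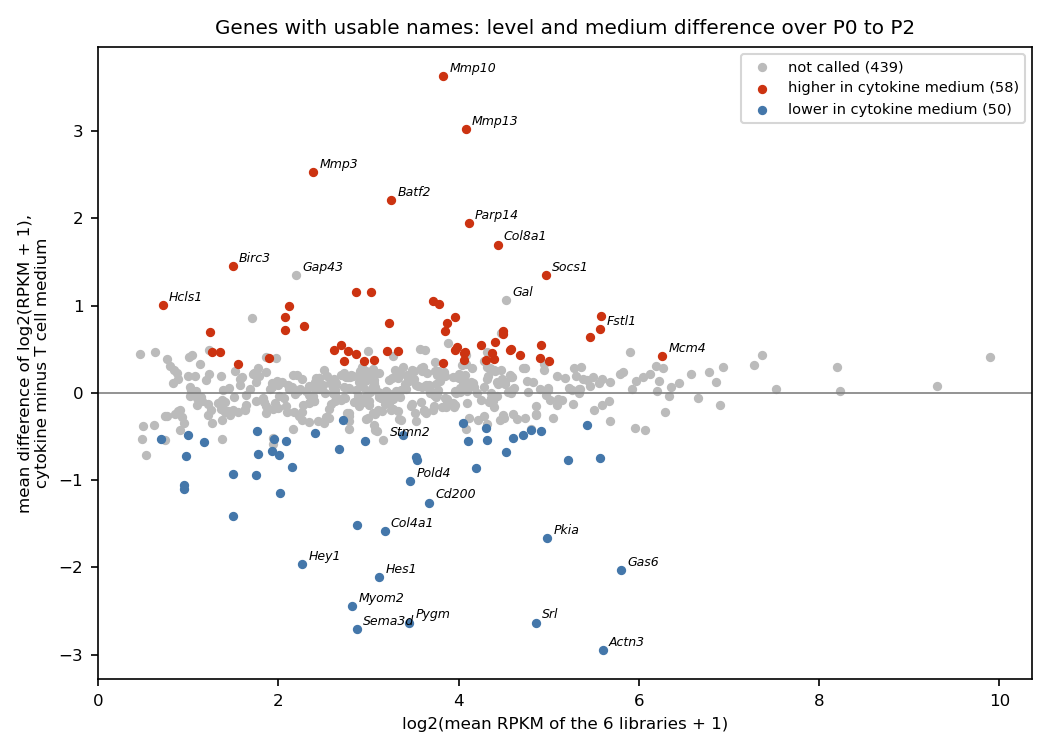
Mean difference of log2(RPKM + 1) over P0 to P2 (y axis) against log2 of the mean RPKM + 1 (x axis) for the 547 genes with usable names, coloured by the limma call. The 58 genes that rose and the 50 that fell are spread over the range of levels, and the largest differences in size are those of Mmp10 (3.64) and Mmp13 (3.02).

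Of the 108 called genes, 34 were also called without each of the 3 passages in turn, among them 24 of the 31 with a mean difference of at least 1 in size. Fewest calls remained without P1, when 43 genes were called (19 rose, 24 fell). Such a count depends on how far the remaining passages agreed, so it does not measure the weight of the passage left out. Without P0 there were 71 calls (34 rose, 37 fell) and without P2 there were 89 (50 rose, 39 fell).

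Of 12 listed genes of the interferon response, all had usable names, 8 reached 1 RPKM, 5 of them rose and none fell. All 8 were higher in cytokine medium at each passage, with a median difference of 1.04 against 0.04 for all 547 genes. Casp4 reached 1 RPKM only in the P1 cytokine library (1.03 RPKM, against at most 0.56 RPKM in T cell medium), so its direction is no independent support. Below 1 RPKM, Casp1, Nlrc3 and Samsn1 changed sign between passages, and Cd86 was at 0 in every library. Parp14, an ADP-ribosyltransferase of macrophage and interferon responses (chr16:35832874-35871544), was at 4.52, 6.19 and 7.72 RPKM in T cell medium and 20.6, 30.1 and 28.7 RPKM in cytokine medium. The media did not overlap, and the highest T cell library lay well below the lowest cytokine library. The difference was 1.95 ± 0.17 (limma adjusted p = 0.000251), and the fold was 4.60 (4.19 to 5.04) at P0, 4.90 (4.57 to 5.26) at P1 and 3.70 (3.47 to 3.95) at P2. Batf2, a basic leucine zipper factor induced by IFN-γ, was at 1.62, 3.14 and 1.84 RPKM against 6.96, 16.6 and 20.9 RPKM in cytokine medium. Its difference was 2.21 ± 0.68 (limma adjusted p = 0.00314), and its fold was 4.40 (3.29 to 5.99) at P0 and 11.4 (8.97 to 14.6) at P2.

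Parp9 and Dtx3l encode partner proteins, an ADP-ribosyltransferase and a ubiquitin ligase, and their annotated gene bodies overlap head to head on chromosome 16. Parp9 was at 6.57, 7.62 and 10.2 RPKM in T cell medium and 15.0, 17.2 and 19.7 RPKM in cytokine medium (1.02 ± 0.11, limma adjusted p = 0.00172). Dtx3l was at 6.81, 6.52 and 9.19 RPKM and at 13.1, 18.2 and 18.9 RPKM (1.05 ± 0.26, limma adjusted p = 0.00386). Both were higher at every passage, by folds between 1.94 and 2.75. The overlap covers 9.4% of the exon bases of Parp9 and 8% of those of Dtx3l, and the sources used here do not give the strand setting of the counting.

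Socs1, the feedback inhibitor of JAK signalling that interferons and STAT6 both raise, was at 17.1, 16.7 and 15.8 RPKM in T cell medium. In cytokine medium it was at 40.1, 50.1 and 41.5 RPKM (1.35 ± 0.17, limma adjusted p = 0.00107). The T cell values varied little and every cytokine value was above 40 RPKM. The remaining members did not pass the test: Rtp4, an interferon-induced transporter protein of chemosensory receptors, had a difference of 0.33 (limma adjusted p = 0.0853), Ciita, the master factor of MHC class II genes, 0.41 (0.0537), and Casp4, an inflammatory caspase, 0.47 (0.101). Ciita stayed at 0.470 to 1.11 RPKM in T cell medium and 1.08 to 1.41 RPKM in cytokine medium, so the media overlapped narrowly. All 5 calls held without each passage in turn.

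The promoter of Socs1 is shown as that of the called interferon gene with the largest difference among those in the promoter table (RefSeq, GRCm38.p6, chr16:10785537-10785786, minus strand, the 250 bases before the gene start, 5′ to 3′). Capitals mark matches to the core of the interferon-stimulated response element, which is GAAA, 2 free bases and GAAA, searched on both strands.
Socs1: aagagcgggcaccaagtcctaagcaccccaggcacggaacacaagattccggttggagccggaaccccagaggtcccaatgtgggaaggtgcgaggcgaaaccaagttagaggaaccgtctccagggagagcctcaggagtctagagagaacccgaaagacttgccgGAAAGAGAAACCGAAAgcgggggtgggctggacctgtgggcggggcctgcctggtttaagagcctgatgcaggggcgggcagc
There were 2 matches, at -83 and -77 from the start, which overlap each other. A match occurred in 3% of all 32851 promoter windows of this length. The GAS pattern TTCNNNGAA, present in 7% of the windows, did not occur in this window. Of the 5 called genes of this list, 2 had an entry in the promoter table, and the window of the other, Dtx3l, held neither pattern.

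Among 15 listed cytokine receptors and signalling genes, 14 reached 1 RPKM, with a median difference of 0.17. Of these, 3 rose (Ifngr2, Rela and Socs1, above) and none fell, against 10.6% and 9.14% of the 547 genes. Ifngr2, the signalling chain of the IFN-γ receptor (chr16:91547072-91565623), was at 4.26, 2.62 and 3.65 RPKM in T cell medium and 9.69, 9.93 and 7.43 RPKM in cytokine medium. All cytokine libraries lay above all T cell libraries, with a difference of 1.16 ± 0.38 (limma adjusted p = 0.00585). Neighbouring receptor genes had smaller differences. Ifnar1 and Ifnar2, the chains of the type I interferon receptor, had differences of 0.23 (limma adjusted p = 0.175) and 0.12 (0.335), and Il10rb, a chain shared by receptors of the IL-10 family, 0.06 (0.769). Whether Ifngr2 differed from them was not tested.

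Rela, the p65 subunit of NF-kB, had a difference of 0.37 ± 0.05 (limma adjusted p = 0.0378). It was at 25.4, 28 and 27.6 RPKM in T cell medium and 34.5, 35.7 and 35.3 RPKM in cytokine medium. The step was small and even, yet its call was lost without any 1 of the passages (adjusted p = 0.277, 0.113 and 0.0503 without P0, P1 and P2). Il1rap, the accessory chain of the IL-1 receptor, did not pass (0.86 ± 0.70, limma adjusted p = 0.0569). It was at 1.72, 1.61 and 0.649 RPKM in T cell medium and 2.19, 3.38 and 4.05 RPKM in cytokine medium, so the media moved apart over the passages.

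Of 12 listed genes of the NF-kB response, 10 reached 1 RPKM, 7 rose and none fell, with a median difference of 0.67. They were Birc3, Litaf, Nfkbiz, Rela and the metalloproteases Mmp3, Mmp10 and Mmp13, which are also in the protease list. Of the 10, 8 were higher in cytokine medium at each passage and 1, Steap4, was lower at each. Steap4 was at 1.35, 0.827 and 3.06 RPKM in T cell medium and 1.18, 0.709 and 1.25 RPKM in cytokine medium. The calls numbered 5 without P0, 2 without P1 (Birc3 and Litaf) and 6 without P2. Birc3, an inhibitor of apoptosis that NF-kB raises, was at 0.648, 0.291 and 0.570 RPKM in T cell medium and 3.59, 3.15 and 2.61 RPKM in cytokine medium. The difference was 1.45 ± 0.24 (limma adjusted p = 0.00121), and the fold was 6.16 (4.39 to 8.86) at P0, 10.9 (7.12 to 17.5) at P1 and 4.55 (3.30 to 6.39) at P2. Birc3 reached 1 RPKM only in cytokine medium, so its direction was partly set by that threshold. Its paralogue Birc2 lies on the same chromosome and had a difference of -0.23 (limma adjusted p = 0.296). Litaf, a regulator of TNF-α transcription, was at 29.4, 39.0 and 29.8 RPKM and at 48.5, 67.4 and 67.3 RPKM (0.88 ± 0.24, limma adjusted p = 0.00745). Nfkbiz, the inducible nuclear IkB protein, rose by 0.46 ± 0.22 (limma adjusted p = 0.0375), a call lost without P0 (0.138) or P1 (0.135).

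The metalloproteases Mmp13 (collagenase 3), Mmp3 (stromelysin 1) and Mmp10 (stromelysin 2) lie in 1 cluster, at chr9:7272514-7283331, chr9:7445822-7455975 and chr9:7502352-7510240. Mmp10 was at 0.432, 0.601 and 0.185 RPKM in T cell medium and 3.14, 22.8 and 52.0 RPKM in cytokine medium. It reached 1 RPKM only in cytokine medium. Mmp13 was at 1.60, 1.10 and 0.893 RPKM and at 3.32, 16.6 and 72.0 RPKM. Mmp3 was at 1.78, 0.162 and 0.0354 RPKM and at 5.86, 8.08 and 9.42 RPKM. In cytokine medium all 3 genes were higher at P2 than at P0, and in T cell medium all 3 were lower at P2 than at P0.

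The mean differences were 3.64 ± 1.99 for Mmp10 (limma adjusted p = 0.0171), 3.02 ± 2.27 for Mmp13 (0.0388) and 2.53 ± 1.08 for Mmp3 (0.00817). The SDs were large because the passages disagreed in size and not in direction. The fold of Mmp13 was 2.05 (1.49 to 2.85) at P0, 15.0 (11.2 to 20.7) at P1 and 86.7 (62.5 to 124) at P2. That of Mmp10 was 8.38 (4.21 to 18.9), 34.9 (21.9 to 59.2) and 289 (124 to 892), the last from 1393 reads against 5. For Mmp3 at P2 the T cell library held a single read against 249, a ratio of 258 with an interval of 46.0 to 10200. Without P1 all 3 calls ended (adjusted p = 0.0926, 0.149 and 0.0625). That of Mmp13 also ended without the pairing by passage (0.0724) and when only the rows with usable names were fitted (0.0528). The other genes of the cluster with a usable name, Mmp1a, Mmp1b, Mmp8 and Mmp12, stayed below 1 RPKM in every library, with maxima of 0.0327, 0.119, 0.0270 and 0.215 RPKM.

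The promoters of Mmp10 and Mmp13 are shown because these 2 genes had the largest differences of the NF-kB list (RefSeq, GRCm38.p6, plus strand, 250 bases before the start, 5′ to 3′). Capitals mark the AP-1 element TGANTCA, searched on both strands. The window of Mmp10 is chr9:7502092-7502341 and that of Mmp13 is chr9:7272264-7272513.
Mmp10: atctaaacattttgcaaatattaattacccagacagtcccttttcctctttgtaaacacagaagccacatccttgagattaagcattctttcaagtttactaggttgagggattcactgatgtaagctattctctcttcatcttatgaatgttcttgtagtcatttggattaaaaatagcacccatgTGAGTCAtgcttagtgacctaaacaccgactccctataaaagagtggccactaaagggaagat
Mmp13: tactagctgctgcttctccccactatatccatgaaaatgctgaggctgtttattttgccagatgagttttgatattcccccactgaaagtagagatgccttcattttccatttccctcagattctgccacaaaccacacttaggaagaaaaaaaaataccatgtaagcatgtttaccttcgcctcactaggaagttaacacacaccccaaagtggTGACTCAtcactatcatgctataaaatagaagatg
Both windows held 1 element. It began at -63 in Mmp10 and at -35 in Mmp13, and it occurred in 6.7% of all 32851 windows. The NF-kB pattern, GGG, 5 free bases and CC, found in 45.8% of windows, was in neither. Of the other 4 called genes of the list with a window, Mmp3 held 1 AP-1 element and Birc3, Litaf and Rela none, and the NF-kB pattern was found 1 time in Birc3, 3 times in Rela and in neither Mmp3 nor Litaf. Mmp13 also held 1 match to the interferon-stimulated core on the opposite strand, at -146.

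**Figure D2:**
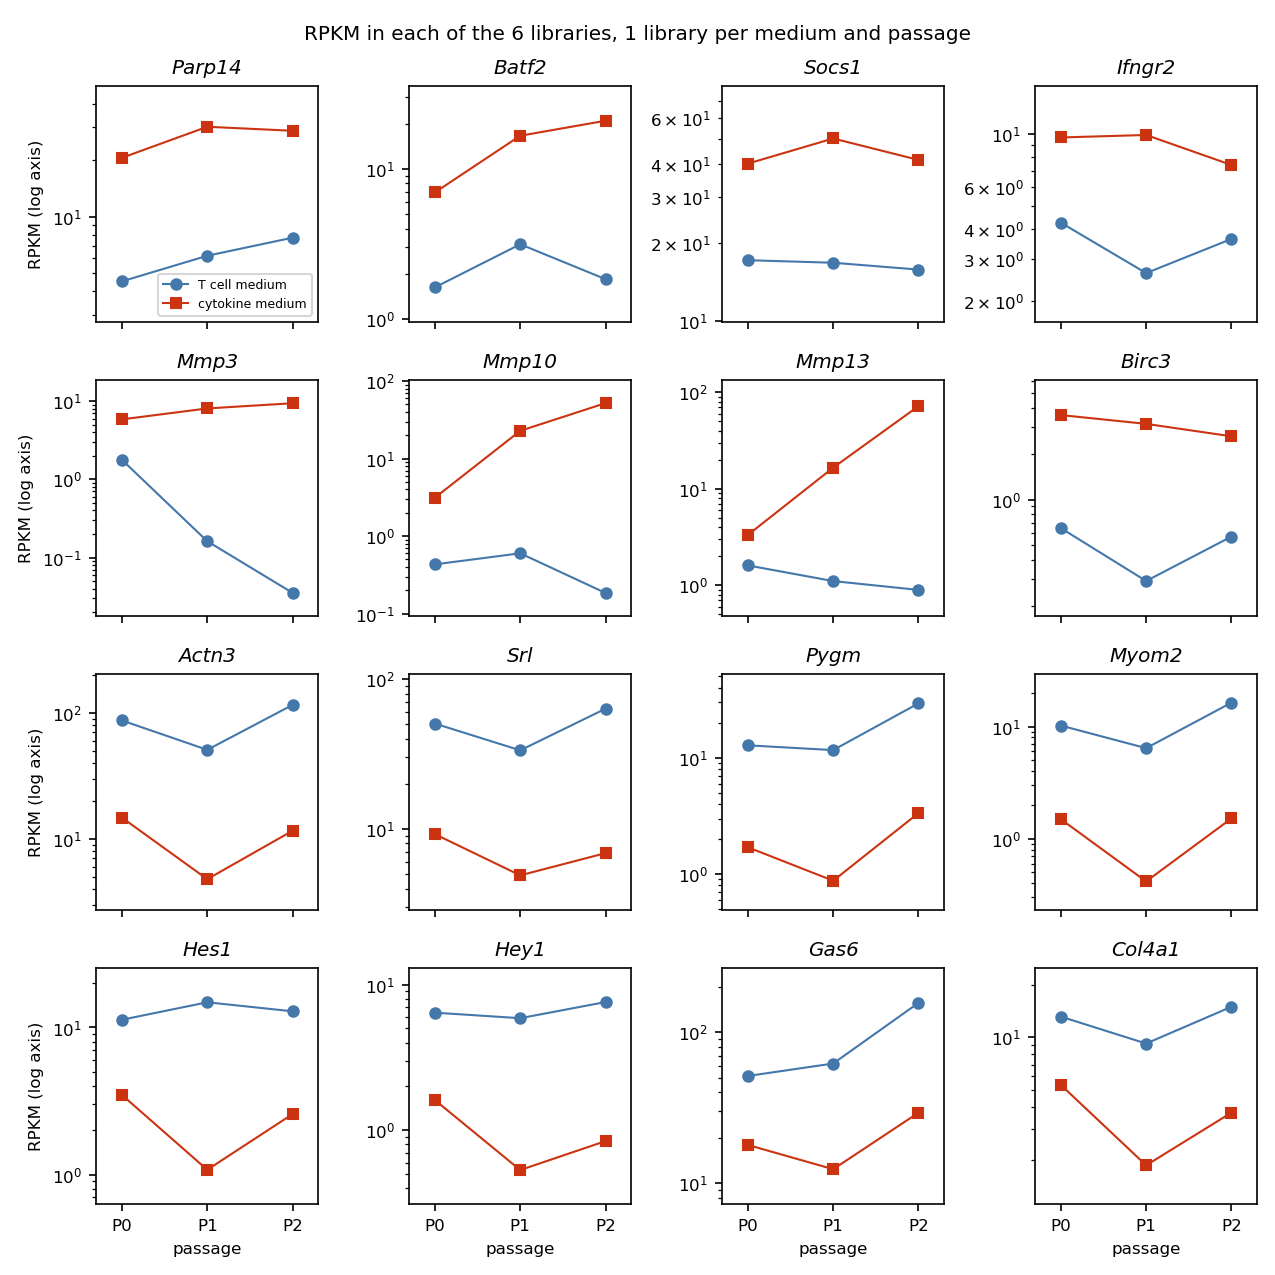
RPKM on log axes (y) at P0, P1 and P2 (x) in T cell medium (blue circles) and cytokine medium (red squares) for 16 genes, 1 library per point and medium. In the upper 2 rows every cytokine library lies above every T cell library, and in the lower 2 rows every one lies below. The gap of Mmp3, Mmp10 and Mmp13 widens over the passages.

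Of 12 listed genes of the muscle fibre, 10 had usable names, 6 reached 1 RPKM, and all 6 fell, with a median difference of -2.54. The calls of all 6 held without each passage in turn. Actn3, the alpha-actinin of fast fibres, which anchors actin at the Z disc (chr19:4861216-4877909), was at 86.9, 50.8 and 116 RPKM in T cell medium and 14.7, 4.79 and 11.6 RPKM in cytokine medium. The lowest T cell library was over the highest cytokine library by a wide margin. Its difference was -2.95 ± 0.41 (limma adjusted p = 0.000276), and the fold was 0.172 (0.158 to 0.187) at P0, 0.0952 (0.0834 to 0.108) at P1 and 0.0994 (0.0907 to 0.109) at P2.

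Myom2, which links thick filaments at the M band, was at 10.2, 6.42 and 16.3 RPKM in T cell medium and 1.49, 0.416 and 1.51 RPKM in cytokine medium (-2.45 ± 0.31, limma adjusted p = 0.000251). Srl, the calcium-binding sarcalumenin of the sarcoplasmic reticulum, was at 50.4, 33.4 and 63.4 RPKM and at 9.22, 4.90 and 6.89 RPKM (-2.63 ± 0.36, limma adjusted p = 0.000276). Pygm, the muscle glycogen phosphorylase (chr19:6384399-6398459), was at 12.8, 11.6 and 29.3 RPKM and at 1.70, 0.878 and 3.35 RPKM (-2.63 ± 0.25). Its adjusted p, 0.000143, was the lowest of the 547 genes. For none of these 3 genes did the media overlap.

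Pkia, an inhibitor of protein kinase A that is abundant in muscle, was at 51.5, 36.1 and 53.7 RPKM in T cell medium and 15.6, 11.8 and 14.7 RPKM in cytokine medium (-1.67 ± 0.13, limma adjusted p = 0.000316). Popdc2, a membrane protein of striated muscle, was low, at 2.35, 0.742 and 1.80 RPKM against 0.262, 0.147 and 0.266 RPKM (-1.05 ± 0.41, limma adjusted p = 0.0117). It reached 1 RPKM only in T cell medium. Each of the 6 genes was lowest at P1 in both media, as were 20.8% of the 547 genes and 21.9% of all rows. In T cell medium 5 of the 6 were highest at P2, as were 40.8% of the 547 genes and 38% of all rows. In bulk RNA, fewer cells of a type and less RNA per cell cannot be told apart. The smooth muscle markers Myh11 and Mylk stayed at or below 0.298 RPKM, with summed levels of 0.13 to 0.435 RPKM in T cell medium and 0.2 to 0.28 RPKM in cytokine medium.

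The promoters of Pygm and Popdc2 are shown because only these 2 of the 6 called genes had a promoter entry. Muscle genes are known to use E-boxes, CANNTG, the element of the MyoD family. The sequences are from RefSeq (GRCm38.p6, plus strand, 250 bases before the start, 5′ to 3′), and capitals mark the E-boxes. The windows are chr19:6384158-6384407 and chr16:38361940-38362189.
Pygm: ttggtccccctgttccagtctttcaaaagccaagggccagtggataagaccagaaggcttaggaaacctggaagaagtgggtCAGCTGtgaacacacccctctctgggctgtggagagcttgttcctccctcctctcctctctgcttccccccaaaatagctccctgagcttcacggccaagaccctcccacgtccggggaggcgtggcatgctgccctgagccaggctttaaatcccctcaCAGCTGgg
Popdc2: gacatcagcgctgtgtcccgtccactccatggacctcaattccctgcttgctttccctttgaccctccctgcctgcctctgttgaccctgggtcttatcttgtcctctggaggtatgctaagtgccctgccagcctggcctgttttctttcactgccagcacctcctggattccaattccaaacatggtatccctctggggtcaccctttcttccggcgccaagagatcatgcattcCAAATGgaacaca
Pygm held 2 E-boxes, at -168 and -8, and Popdc2 held 1, at -13. Positions are from the RefSeq start. The window of Pygm ends past the gene start given above, so its match at -8 lies inside that gene body. This short pattern occurred in 66.2% of the 32851 windows, so most windows hold it.

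Of 12 myogenic lineage and transcription factor genes that reached 1 RPKM, 3 fell and none rose. The shares of the 547 genes were 9.14% and 10.6%. Boc, a receptor that promotes myoblast differentiation, was at 3.29, 3.33 and 4.40 RPKM in T cell medium and 2.60, 1.77 and 1.49 RPKM in cytokine medium (-0.67 ± 0.43, limma adjusted p = 0.0373). The gap widened from passage to passage, and the call ended without P1 (0.133) or P2 (0.0589). Zbtb20, a zinc finger repressor, fell by 0.72 (limma adjusted p = 0.0164), and so did Hic2, by 0.48 (0.0378), though 50.7% of the exon bases of Hic2 are shared with another gene. Zbtb20 lost its call without P1 (0.059), and Hic2 lost it without any 1 of the passages (0.0845, 0.0975 and 0.0902). Zbtb20 and Hic2 reached 1 RPKM only in T cell medium, so their direction was partly set by that threshold. Snai2, the Slug repressor of myoblasts, did not pass (0.33, limma adjusted p = 0.101), nor did Vgll3, a TEAD cofactor of muscle (-0.25, 0.359). Tfap4, a helix-loop-helix factor of proliferating cells, did not pass (0.50 ± 0.60, limma adjusted p = 0.151), and at P1 its sign was the opposite of that at P0 and P2.

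The Notch list held 4 genes, of which 2 fell and 1 rose. Hes1, the repressor that most directly reads out Notch, was at 11.3, 14.8 and 12.9 RPKM in T cell medium and 3.48, 1.08 and 2.58 RPKM in cytokine medium. The T cell libraries were all above 11 RPKM and the cytokine libraries all below 4 RPKM. Its difference was -2.11 ± 0.75 (limma adjusted p = 0.00499), and the fold was 0.318 (0.253 to 0.396) at P0, 0.0764 (0.0543 to 0.105) at P1 and 0.201 (0.157 to 0.255) at P2. Hey1, the second repressor of the family, which maintains satellite cells with HeyL, was at 6.42, 5.88 and 7.59 RPKM and at 1.61, 0.534 and 0.843 RPKM (-1.96 ± 0.40, limma adjusted p = 0.00107). Both calls held without each passage in turn. The gene of the list that rose was Dtx3l, described above as an interferon gene, which is listed here as a relative of the Notch regulator Deltex. Poglut1, the enzyme that adds glucose to Notch receptors, did not pass (0.28, limma adjusted p = 0.0907).

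Of 12 listed extracellular matrix genes, 9 reached 1 RPKM, 2 rose and 3 fell, against 10.6% and 9.14% of the 547 genes. Col4a1 and Col4a2, the chains of basement membrane collagen IV, lie head to head on chromosome 8 (chr8:11198423-11312826 and chr8:11312805-11449287). Col4a1 was at 13.1, 9.23 and 15.0 RPKM in T cell medium and 5.35, 1.86 and 3.72 RPKM in cytokine medium (-1.58 ± 0.37, limma adjusted p = 0.00187). Col4a2 was at 9.42, 7.82 and 12.1 RPKM and at 3.72, 1.58 and 3.22 RPKM (-1.52 ± 0.33, limma adjusted p = 0.00171). The 2 chains kept nearly the same difference at each passage: -1.15, -1.84 and -1.76 for Col4a1 and -1.14, -1.77 and -1.63 for Col4a2.

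Col8a1, a short-chain network collagen of vessels and remodelling tissue, moved the other way. It was at 9.69, 8.13 and 9.66 RPKM in T cell medium and 29.4, 34.9 and 31.7 RPKM in cytokine medium (1.70 ± 0.25, limma adjusted p = 0.000819). Fstl1, a secreted glycoprotein of mesenchymal cells, rose by 0.73 ± 0.38 (limma adjusted p = 0.0257), from 43.3, 24.7 and 37.9 RPKM to 64.2, 56.8 and 52.9 RPKM, and its call ended without P1 (0.0804). Ltbp3, which holds latent TGF-beta in the matrix, fell by 0.54 (limma adjusted p = 0.0375), a call lost without any 1 of the passages (0.0747, 0.088 and 0.0526). Leprel1, a prolyl hydroxylase that modifies basement membrane collagen, was named for its size of change and rose by 1.00 ± 0.37 (limma adjusted p = 0.00844, 0.0601 without P1). The summed level of the 6 fibroblast markers was 26.7 to 45.6 RPKM in T cell medium and 53.6 to 65.1 RPKM in cytokine medium. The higher sum was that of Fstl1 alone: the other 5 markers summed to 1.93 to 5.03 RPKM in T cell medium and 0.426 to 0.916 RPKM in cytokine medium. Of the 3 markers that reached 1 RPKM, Fstl1 rose, Adamts5 fell (below) and Ccdc80, also a matrix gene, did not pass (-0.52, limma adjusted p = 0.0915), and their median difference was -0.52. Cd248, a defining marker, was at 0.925, 0.569 and 0.446 RPKM in T cell medium and 0.471, 0.302 and 0.283 RPKM in cytokine medium. The part of such cells in these differences was not tested. Other members did not pass: Efemp2, a fibulin, was even at 29.6 to 32.4 RPKM over all 6 libraries (-0.02, 0.878), the integrin chain Itgb5 varied with passage (0.25 ± 0.72, 0.511), and Vasn, which binds TGF-beta, was lower at P2 mainly (-0.44 ± 0.60, 0.197).

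Among the 8 secreted proteases and inhibitors that reached 1 RPKM, the 3 metalloproteases rose and 2 genes fell. The shares of the 547 genes were 10.6% and 9.14%. Adamts5, an aggrecan-cleaving protease, was at 0.733, 1.08 and 3.28 RPKM in T cell medium and 0.179, 0.0600 and 0.257 RPKM in cytokine medium (-1.10 ± 0.62, limma adjusted p = 0.0245). It reached 1 RPKM only in T cell medium. Masp1, a complement protease, fell by 0.52 (limma adjusted p = 0.0439). Both calls ended without P1 (0.0941 and 0.17) and without the pairing by passage, and that of Masp1 also ended without P2 (0.0902). Without P1 none of the 5 genes of the group was called. Adamts1, on chromosome 16 like Adamts5, did not pass (0.07, limma adjusted p = 0.667), and neither did Pros1, the anticoagulant protein S (-0.03, 0.839). Ctsf, a lysosomal cysteine protease that is in none of the lists, fell by 1.14 ± 0.66 (limma adjusted p = 0.0229). It ends 297 bases from Actn3, and the exons of these genes do not overlap.

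Of 8 secreted ligands that reached 1 RPKM, 2 fell and none rose, against 9.14% and 10.6% of the 547 genes. Sema3d, a class 3 semaphorin that steers axons and vessels, was at 4.09, 6.05 and 26.0 RPKM in T cell medium and 0.265, 0.193 and 1.30 RPKM in cytokine medium. It was highest at P2 in both media, and every cytokine library lay under every T cell library (-2.71 ± 0.78, limma adjusted p = 0.00241). The fold was 0.0601 (0.0380 to 0.0910) at P0, 0.0324 (0.0204 to 0.0490) at P1 and 0.0489 (0.0406 to 0.0583) at P2. Gas6, the ligand of the TAM receptor kinases, which dampen cytokine signalling, was at 51.3, 62.0 and 157 RPKM and at 17.9, 12.4 and 29.3 RPKM (-2.03 ± 0.49, limma adjusted p = 0.00182). Both calls held without each passage in turn. Chrd, the BMP antagonist chordin, did not pass (-0.71 ± 0.46, limma adjusted p = 0.0508), with a fold of 0.0972 (0.0404 to 0.202) at P0 and 0.0483 (0.0174 to 0.108) at P2. Efnb2, an ephrin, was even in all libraries, at 22.9 to 23.2 RPKM in T cell medium and 23.9 to 24.2 RPKM in cytokine medium.

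The ephrin receptors Ephb3 and Epha3 fell. Ephb3 was at 3.40, 1.41 and 4.66 RPKM in T cell medium and 0.695, 0.314 and 0.430 RPKM in cytokine medium (-1.41 ± 0.55, limma adjusted p = 0.00812). It reached 1 RPKM only in T cell medium. Epha3 was at 3.69, 3.20 and 2.77 RPKM and at 1.72, 1.95 and 1.14 RPKM (-0.71, limma adjusted p = 0.00745). It was singled out after its values were seen.

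Of 11 Ig-family and adhesion genes at the cell surface that reached 1 RPKM, 3 rose and 2 fell. The shares of the 547 genes were 10.6% and 9.14%. Cxadr, a tight junction protein that is the receptor of coxsackievirus and adenovirus, was at 3.36, 4.40 and 4.24 RPKM in T cell medium and 7.25, 12 and 11.8 RPKM in cytokine medium (1.16 ± 0.20, limma adjusted p = 0.00178). Cd47, the signal that restrains phagocytes, rose by 0.53 ± 0.07 (limma adjusted p = 0.0133), from 10.2, 13.0 and 12.8 RPKM to 15.3, 18.1 and 19.7 RPKM. Jam2, a junctional adhesion molecule, rose by 0.34 (limma adjusted p = 0.0486). Cd200, another ligand that restrains myeloid cells, was at 19.1, 8.53 and 23.1 RPKM and at 11.1, 3.62 and 5.02 RPKM (-1.26 ± 0.66, limma adjusted p = 0.018). Cd47 and Cd200, both ligands of inhibitory receptors on myeloid cells, thus moved in opposite directions. Boc, described above, was the other gene that fell. The call of Cxadr alone held without each passage, and Cd200 lost its call without P1 (0.0771). Jam2 lost its call when the libraries were rescaled to the same sum and after quantile normalization. Alcam, an adhesion molecule of activated leukocytes, did not pass (0.68 ± 0.63, limma adjusted p = 0.0859), and neither did the claudin Cldn12 (0.19, 0.407).

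All 20 listed genes of DNA replication and the cell cycle reached 1 RPKM, with a median difference of 0.22. Of these, 6 rose and 1 fell, against 10.6% and 9.14% of the 547 genes. The increases were small. Mcm4, a subunit of the replicative helicase, was at 68.9, 68.2 and 56.5 RPKM in T cell medium and 90.0, 89.7 and 79.6 RPKM in cytokine medium (0.42 ± 0.06, limma adjusted p = 0.0324). The fold was 1.31 (1.25 to 1.37) at P0, 1.32 (1.27 to 1.38) at P1 and 1.43 (1.36 to 1.49) at P2. Cdk6, the kinase of the G1 phase, had the largest of these increases (0.71, limma adjusted p = 0.00714), and the others were Cdc45 (0.51), Dbf4 (0.46), Mis18a (0.44) and Pola2 (0.43). Only 1 gene of the list was still called as higher without P0, 1 without P1 and 3 without P2. Rescaling the libraries left 4 of the increases, without that of Mcm4.

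Pold4, the smallest subunit of DNA polymerase delta, fell, from 15.5, 12.2 and 13.6 RPKM to 6.54, 5.56 and 6.80 RPKM (-1.01 ± 0.12, limma adjusted p = 0.00171). Its call held without each passage, but 24.6% of its exon bases are shared with another gene. Tfdp1, a partner of E2F factors, did not pass (0.29, limma adjusted p = 0.161), and neither did Cdc16, a subunit of the anaphase-promoting complex (0.16, 0.282).

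The list of FGF output had 5 genes, of which 2 rose, against 10.6% of the 547 genes. Fosl1, an AP-1 subunit that growth factors raise, was at 9.21, 12.1 and 7.74 RPKM in T cell medium and 15.0, 16.3 and 21.2 RPKM in cytokine medium (0.80 ± 0.49, limma adjusted p = 0.0309, 0.0543 without P1). Of its exon bases, 57.2% are shared with another gene. Rin1, a Ras effector, rose by 0.50 (limma adjusted p = 0.0341). Its call was lost without any 1 of the passages (0.13, 0.0551 and 0.0658). Etv5, a transcription factor downstream of FGF, did not pass (-0.21, limma adjusted p = 0.171), and neither did the adaptor Crkl (-0.29, 0.092). FGF was at the same concentration in both media.

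**Figure D3:**
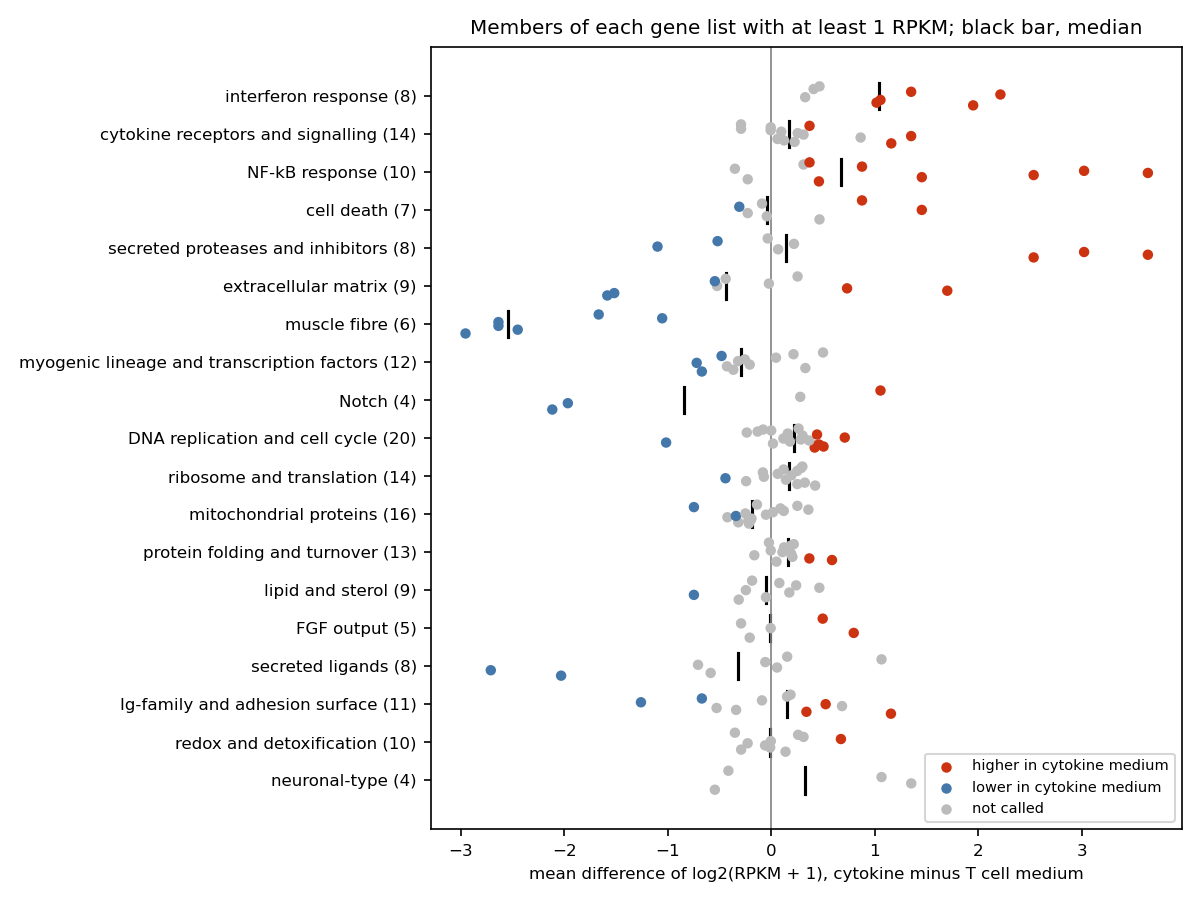
Mean difference of log2(RPKM + 1) over P0 to P2 (x axis) of each member of each list with at least 4 members that reached 1 RPKM (y axis, number of members in brackets), coloured by the limma call, with the median as a black bar. All 6 muscle fibre members lie below 0 with a median of -2.54, and all 8 interferon response members lie above 0 with a median of 1.04.

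The lists of basic cell functions held few calls, and few were made in general (19.7% of the 547 genes and 15.9% of all rows in either direction). Of 16 mitochondrial genes 2 fell and none rose. Cpt1a, which admits fatty acids to mitochondria, was at 39.8, 62.6 and 73.7 RPKM in T cell medium and 32.4, 27.8 and 41.6 RPKM in cytokine medium (-0.75 ± 0.43, limma adjusted p = 0.0303). Timmdc1, an assembly factor of complex I, fell by 0.34 (limma adjusted p = 0.0419). Cpt1a lost its call without P1 (0.12) or P2 (0.0507), and Timmdc1 lost it without any 1 of the passages (0.193, 0.128 and 0.0856). Pcx, the mitochondrial pyruvate carboxylase, was not matched to its name in the list and is not in these counts. It fell (limma adjusted p = 0.0375), a call lost without P0 (0.101) or P2 (0.0839). The subunits Atp5o (-0.42, limma adjusted p = 0.0508) and Ndufs8 (-0.22, 0.244) did not pass. Neither did Fam162a (-0.14, limma adjusted p = 0.49) or the import receptor Tomm70a (0.02, 0.924). The median of the 16 was -0.19.

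Of 14 ribosome and translation genes, 1 fell and none rose. It was Igf2bp2, an mRNA-binding protein of myoblasts, with 32.4, 32.4 and 36.6 RPKM in T cell medium and 23.7, 22.6 and 27.7 RPKM in cytokine medium (-0.44, limma adjusted p = 0.0242, 0.158 without P0 and 0.0979 without P1). The translation factors Eif4g1 (0.32, limma adjusted p = 0.0833) and Gspt1 (0.14, 0.428), the nucleolar protein Rsl1d1 (0.30, 0.154) and the mitochondrial ribosome protein Mrpl40 (-0.07, 0.739) did not pass. Of 13 protein folding and turnover genes, 2 of the secretory pathway rose, Sdf2l1 (0.59, limma adjusted p = 0.0405) and the disulfide isomerase Pdia5 (0.37, 0.0324), and Sdf2l1 lost its call without P1 (0.142) or P2 (0.065) and Pdia5 without any 1 of the passages (0.112, 0.119 and 0.0526). The chaperonin subunit Cct8 (0.11, limma adjusted p = 0.533), the chaperone Dnajb11 (0.05, 0.758) and the deubiquitinase Usp7 (0.19, 0.308) did not pass. Among 10 redox and detoxification genes, Abcc1, an exporter of glutathione conjugates, rose by 0.67 ± 0.17 (limma adjusted p = 0.0104, 0.0581 without P1). Its values were 18.4, 18.4 and 12.4 RPKM in T cell medium and 26.3, 30.2 and 23.0 RPKM in cytokine medium. The metalloreductases Steap1 (0.31, limma adjusted p = 0.207) and Steap2 (0.26, 0.106) did not pass. Of 9 lipid and sterol genes, Cpt1a was the gene that fell. Fabp5, a fatty acid carrier, did not pass (0.46, limma adjusted p = 0.129), nor did Cyp51 of sterol synthesis (-0.31, 0.168) or the sterol-binding protein Osbpl11 (0.08, 0.61).

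In the cell death list, 7 genes reached 1 RPKM, of which Birc3 and Litaf rose and Cdip1, a p53 target that promotes death, fell by 0.31 (limma adjusted p = 0.0462). Bfar, an apoptosis regulator, did not pass (-0.09, 0.577). The call of Cdip1 was lost without any 1 of the passages (0.195, 0.113 and 0.122). Casp12, a caspase of the endoplasmic reticulum, did not pass (-0.04, limma adjusted p = 0.83), and in both media it was highest at P2, at 12.3 RPKM in T cell medium and 9.98 RPKM in cytokine medium. Of the IL-13 and STAT6 list, Socs1 and Bcl6 reached 1 RPKM. Bcl6, a repressor of STAT6 targets, was at 6.24, 2.69 and 4.07 RPKM and at 4.36, 4.42 and 4.13 RPKM (0.05 ± 0.50, limma adjusted p = 0.873), so the cytokine libraries lay inside the spread of the T cell libraries.

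Of 4 neuronal-type genes that reached 1 RPKM none was called by limma (1, Gap43, without P0 and 1 with voom on recovered reads). Gap43, a growth cone protein, was at 2.46, 1.55 and 0.585 RPKM in T cell medium and 2.96, 4.83 and 9.07 RPKM in cytokine medium (1.35 ± 1.24, limma adjusted p = 0.0722). It was lower at each later passage in T cell medium and higher at each later passage in cytokine medium. Gal, the neuropeptide galanin, was nearly equal in both media at P0 and P1 (14.6 and 28.6 RPKM against 13.1 and 28.4 RPKM) and apart at P2 (3.39 against 43.8 RPKM, a fold of 12.9 with an interval of 9.34 to 18.3). Stmn2, a microtubule regulator of neurons, was at 0.777, 8.01 and 14.9 RPKM and at 0.799, 0.963 and 22.3 RPKM, so the sign of its difference changed between P1 (-2.20) and P2 (0.55). Cnih2, an auxiliary protein of AMPA receptors, did not pass (-0.41, limma adjusted p = 0.151).

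**Figure D4:**
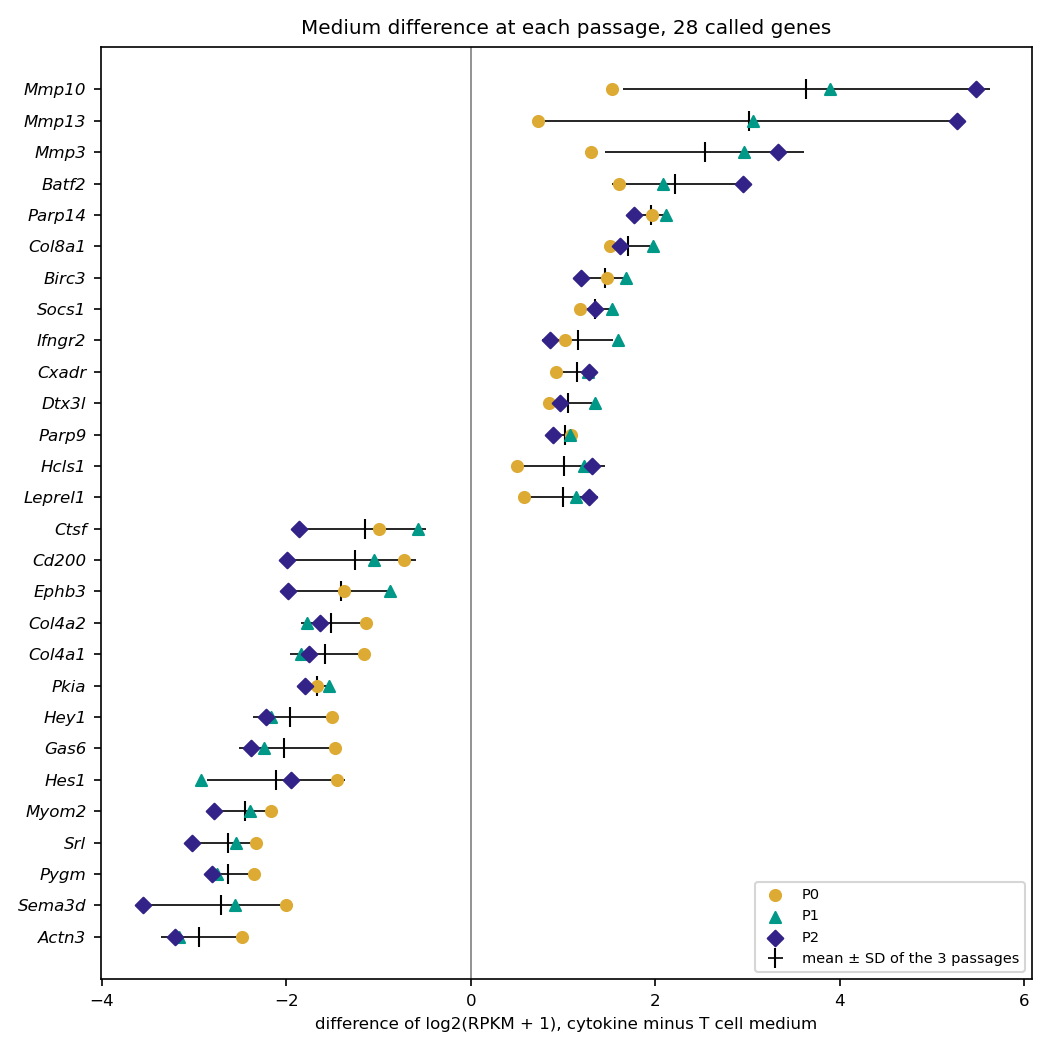
Difference of log2(RPKM + 1), cytokine minus T cell medium (x axis), at P0, P1 and P2 for the 14 largest and 14 smallest mean differences among called genes (y axis), with the mean ± SD of the 3 passages. Parp14 (1.97, 2.12 and 1.77) and Pkia (-1.66, -1.54 and -1.80) are nearly even over the passages, whereas Mmp13 goes from 0.73 to 5.27.

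Differences between the media were wider at later passages. Across the 547 genes their SD was 0.440 (P0), 0.592 (P1) and 0.744 (P2), with medians of 0.05, 0.03 and 0.02. At P0, 9 genes were at least 2-fold higher on this scale (1.65%, against 0.774% of all rows) and 14 at least 2-fold lower (2.56%, against 1.6%). At P1 there were 19 higher (3.47%, against 1.27%) and 15 lower (2.74%, against 1.69%). At P2 there were 22 higher (4.02%, against 1.49%) and 27 lower (4.94%, against 3.98%). A linear change of the difference from P0 to P2 was called for 2 genes (0.366%, against 0.0553% of all rows, where they are the same 2 genes), both upward: Mmp13 by 4.54 (SE 0.22, limma adjusted p = 0.00433) and Mmp10 by 3.95 (SE 0.28, 0.0201). No downward change was called, where 22 genes had an unadjusted p under 0.05 in that direction and 13 in the upward direction, and voom on recovered reads called 3 downward. The largest changes that did not pass were those of Gal (3.50, limma adjusted p = 0.683), Gap43 (2.47, 0.076) and Mmp3 (2.03, 0.513) upward, and of Sema3d (-1.54, 0.513), Cd200 (-1.27, 0.674), Adamts5 (-1.21, 0.683), Ctsw, a lymphocyte protease (-1.18, 0.878), and Rbfox1, a splicing factor of muscle and neurons (-1.13, 0.76), downward. Of the called interferon genes, Parp14 (-0.20), Parp9 (-0.19), Dtx3l (0.12) and Socs1 (0.16) had changes between P0 and P2 with limma adjusted p = 0.999 each, and Batf2 had a change of 1.35 (0.513).

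**Figure D5:**
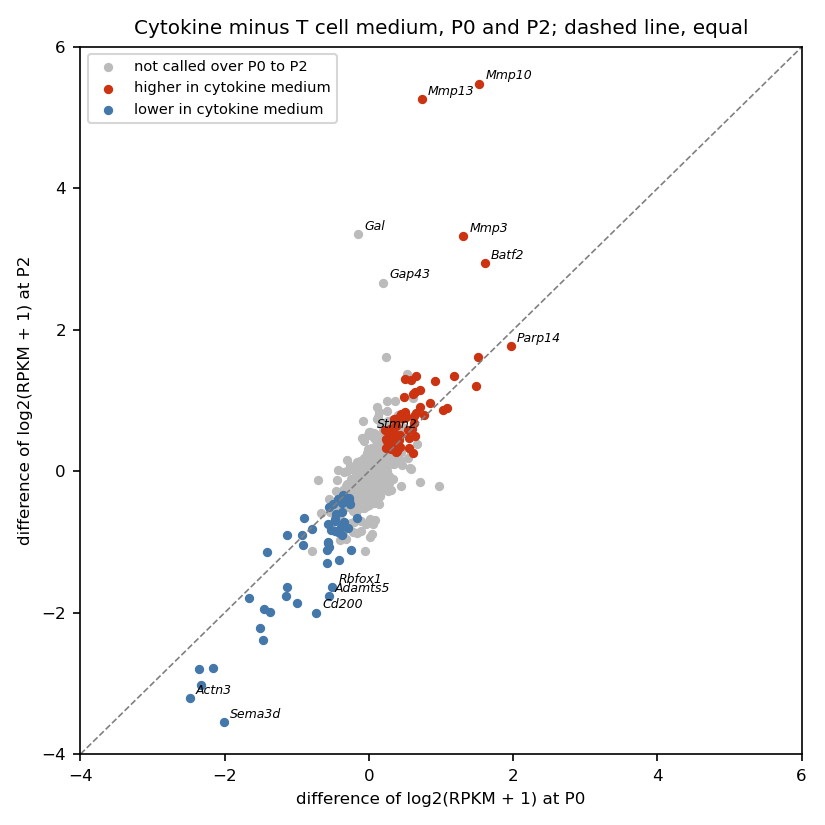
Difference of log2(RPKM + 1), cytokine minus T cell medium, at P0 (x axis) and at P2 (y axis) for each of the 547 genes, coloured by the call over P0 to P2. Points off the dashed line changed between the passages, and Mmp10 (1.53 at P0, 5.48 at P2) and Mmp13 (0.73 and 5.27) are the farthest above it.

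Markers of other cell types were summed per library. Of the 6 myeloid markers with usable names only Hcls1, an adaptor of haematopoietic cells, reached 1 RPKM, and Cd86 was at 0 in every library. Hcls1 was at 0.0148, 0.0771 and 0.0998 RPKM in T cell medium and 0.437, 1.51 and 1.73 RPKM in cytokine medium (1.01 ± 0.44, limma adjusted p = 0.0171, 0.093 without P1). The T cell values rest on 1, 3 and 5 reads, and Hcls1 reached 1 RPKM only in cytokine medium. The summed myeloid level was 0.129 to 0.491 RPKM in T cell medium and 0.539 to 2.08 RPKM in cytokine medium, and Hcls1 alone carried that gap. The other 5 myeloid markers summed to 0.114, 0.219 and 0.392 RPKM in T cell medium and 0.103, 0.308 and 0.358 RPKM in cytokine medium. Lymphoid markers summed to 1.08 to 2.21 RPKM in T cell medium and 1.45 to 2.37 RPKM in cytokine medium. Ctsw was at 0.157, 0 and 0.283 RPKM and at 1.26, 0.485 and 0.107 RPKM (0.44 ± 0.60, limma adjusted p = 0.225). Among the lymphoid markers, Btla, an inhibitory receptor of lymphocytes, fell by 0.53 (limma adjusted p = 0.0283), from 1.12, 0.507 and 1.11 RPKM to 0.538, 0.115 and 0.304 RPKM. That call was lost without any 1 of the passages (0.115, 0.0831 and 0.0552), and Btla reached 1 RPKM only in T cell medium. Endothelial markers summed to 6.17 to 6.75 RPKM and 5.82 to 6.77 RPKM, where Heg1 fell by 0.56 (limma adjusted p = 0.03, lost without any 1 passage) and Arhgap31 did not pass (0.12, 0.392). Adipocyte markers summed to at most 0.0494 RPKM. Neural markers summed to 3.24, 9.56 and 15.5 RPKM in T cell medium and 3.76, 5.79 and 31.3 RPKM in cytokine medium. That sum was Stmn2 and Gap43, described above, while the third marker with a usable name, Ncam2, was at 0 in every library. The part of these cells in the differences of other genes was not tested.

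The next 5 genes were chosen for a mean difference under 0.1 in size and for their high RPKM, and their values are a description. Ppp1ca, a catalytic subunit of protein phosphatase 1, was at 288, 372 and 239 RPKM in T cell medium and 301, 311 and 288 RPKM in cytokine medium (0.02, limma adjusted p = 0.911). Lamp1, a lysosomal membrane protein, was at 169, 173 and 195 RPKM and at 178, 189 and 188 RPKM. Gstp1, a glutathione transferase, was at 95.6, 115 and 95.2 RPKM and at 101, 107 and 84.9 RPKM, and it has near-identical copies, so its reads are uncertain. Naa50, an acetyltransferase, had a difference of 0.07 (limma adjusted p = 0.682). The row of Gm9843, a processed pseudogene, was at 544 to 737 RPKM in T cell medium and 589 to 683 RPKM in cytokine medium, and reads of its near-identical parent gene cannot be separated from it.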

How the data were processed

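RNA sequencing libraries of 9 samples were deposited by the authors as 1 table of RPKM values. Per the submitters' processing notes, which give no roles, TopHat2 2.0.1 and HTSeq 0.5.4p2 were used with mm10; libraries were made from total RNA with a TruSeq kit, per the labels' protocols. The sources used here do not give the annotation, strand setting or scaling. Each library has 2 columns per the file headers, with no statement of what they are. They differed by less than the sampling noise (chi-square per row 0.446 to 0.475, against 4.75 to 38.1 between libraries), and their mean was counted as 1 sample. Identifiers were matched to GENCODE vM21 (11105 of 11148). The bounds of usable names were taken from earlier work on this table.

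Rows with at least 1 RPKM in any of the 6 libraries (3619) were tested on log2(RPKM + 1) with limma 3.58.1 (trend) in R 4.3.3, with passage as a block and Benjamini-Hochberg adjustment at 0.05. The passage number is the only link between same-numbered libraries in the labels. The passages were paired because the comparison was set up that way. Deviations from the medium means correlated at 0.504, 0.381 and 0.292 within P0, P1 and P2, each over 0.1. The unmatched pair of P1 T cell and P2 cytokine medium was also over 0.1 (0.127), and the other unmatched pairs were negative. A second fit tested the interaction of medium with passage number. Whole reads, within 0.02 of a read unit, were recovered in 99.36% of these rows and in 540 of the 547 genes, and gave depth and 95% exact binomial intervals. These RPKM are not counts, so a count test was not the main test. Of the 547 genes, 404 had an entry in the RefSeq promoter table. Each motif was searched on both strands of the 250 bases before the RefSeq start, which can differ from the GENCODE start. The fit was tested on simulated data with known changes.

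The named genes were the 14 largest and 14 smallest mean differences among called genes, per list the 4 most abundant members and any with a difference of at least 1 at a passage, the 5 largest and 5 smallest changes from P0 to P2, and the 5 most abundant genes with a difference under 0.1. Other genes named for a count of their list or as members of it were chosen after their values were seen. 1 gene that this rule names is not reported here. The genes and lists were chosen with earlier results of these data known. Alternatives were other pseudocounts, filters, scalings, single columns, fits without the trend, the block or a passage, and limma-voom on the recovered reads, which was added after seeing the data.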

Additional observations from a re-analysis of the deposited data

Results flagged for a closer look

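The medium difference of 2 genes changed between passages by a test of that change itself, the interaction of medium with passage number in limma. For Mmp10 the difference of log2(RPKM + 1) changed by 3.95 from P0 to P2, from 1.53 to 5.48. For Mmp13 it changed by 4.54, from 0.73 to 5.27. The level in cytokine medium went from 3.14 to 52.0 RPKM for Mmp10 and from 3.32 to 72.0 RPKM for Mmp13, while T cell medium held at most 0.601 and 1.60 RPKM. This change was called for both genes under every alternative that kept a filter on low values; it was not refitted without a passage. Their neighbour Mmp3 changed by 2.03 (limma adjusted p = 0.513) on this scale, which understates changes near 0. Its fold was 3.3 at P0, 48.6 at P1 and 258 at P2, the last from 249 reads against 1. Whether Mmp3 differed from Mmp10 and Mmp13 was not tested. Each level rests on 1 library, and the linear term leaves 1 residual degree of freedom per gene before moderation.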

How the results depend on the processing

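Over the 547 genes, 108 medium differences were called. Without the filter on low values 0 were called by limma (115 upward and 103 downward at an unadjusted p under 0.05). Limma-voom was fitted with the filter kept and called 141. Without the replicate block, that is with the pairing by passage left out, 62 were called, all among the 108. Leaving out 1 passage gave 43 calls (without P1), 71 (without P0) and 89 (without P2). For the change from P0 to P2 no fit without a passage was possible, since it leaves no residual degrees of freedom. The other alternatives gave 90 to 118. Rescaling the libraries gave 54 rose and 57 fell, and quantile normalization 50 and 55, against 58 and 50 as reported. The change from P0 to P2 was called for 2 genes as reported, 0 without the filter (20 upward and 27 downward unadjusted), 7 with rescaled libraries, 9 after quantile normalization, 9 with the first columns alone, 8 with usable names only and 10 with limma-voom. Each of these counts above 2 included Mmp10 and Mmp13. No named gene's difference changed sign while called. The fit with the P15 pair added has the same differences by construction, while its adjusted p could shift through the variance trend. No named gene changed its call in that fit. The causes of these shifts were not tested. Depth limits genes near 0, such as Hcls1 and Mmp3 in T cell medium, which rest on 1 to 5 reads at some passages.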
